A study of Rattus norvegicus with 2 samples.

Results

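The first committed steps of glucose use were examined in A7r5 cells, a rat smooth muscle line from embryonic aorta, through the genes of the hexokinases, the phosphofructokinases and the bifunctional enzymes that regulate phosphofructokinase. The group was set by gene symbol: Hk1, Hk2, Hk3, Pfkm, Pfkl, Pfkp, Pfkfb1, Pfkfb2 and Pfkfb3, with every probe set whose annotation lists that gene alone. Of these 9 genes, 8 were represented, by 16 of the array's 15923 probe sets. No single-gene probe set in the annotation used here carried the symbol Hk3, the hexokinase of blood cells, so Hk3 is not analysed here. Hk1 had 4 probe sets, Pfkfb2 had 4, Pfkm and Pfkfb3 had 2 each, and Hk2, Pfkl, Pfkp and Pfkfb1 had 1 each.

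Both groups were infected for 72 hours with adenovirus in medium with 5.5 mM glucose, at a multiplicity of infection of 10, where 1 stood for 100 particles per cell. The control group received the empty vector, and the GLUT1 group the vector with the human cDNA for GLUT1, a facilitative glucose transporter. RNA of 3 days was pooled for each condition, and each pool was read on 1 array, so the study has 2 arrays and no replicate of either group. Without replicates no gene has a p-value, and precision is limited by there being 2 arrays. A difference in RNA per cell cannot be told apart from a difference in the mix of cells. Both groups are the same established line carrying an adenovirus, and there was no uninfected group.

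Hexokinases trap glucose in the cell by phosphorylating it, and phosphofructokinase then carries out the committed step of glycolysis. Hk1 is the widely expressed hexokinase, and Hk2 is the insulin-responsive form of muscle and fat, and both can dock on the outer mitochondrial membrane. Phosphofructokinase is a tetramer of muscle (Pfkm), liver (Pfkl) and platelet (Pfkp) subunits. The bifunctional enzymes of the Pfkfb family make and break down fructose 2,6-bisphosphate, the strongest allosteric activator of phosphofructokinase.

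The arrays had the same median intensity, 508 linear units. A probe set counted as measured when the mean of its log2 intensities, taken with a floor at 175 units, reached the median of all probe sets, 8.99 (507 units); 7962 probe sets and 6115 of 10412 genes did. A gene is called on the array here when a probe set is annotated with it alone, so one named only beside other genes is not counted. A gene was represented by its brightest probe set, and its log2 ratio is GLUT1 over control. The spread beside a ratio is the median absolute deviation, scaled to an SD, over the measured probe sets nearest in brightness. This local spread holds array noise and real differences together and is no replicate error. Of 10 smooth muscle markers 7 were measured, beside 6115 of 10412 genes, so the count alone does not identify the cell type. The brightest, Acta2, read 16303 units on the control and 16687 on the GLUT1 array. The smooth muscle myosin gene Myh11 lay below the filter, at 227 and 228 units. So did Mylk at 343 and 310 units and Lmod1 at 204 and 243 units. The measured smooth muscle markers farthest from 0 were Smtn at a log2 ratio of 0.19 and Cald1 at -0.13. Of 10 leukocyte markers 2 were measured, C1qb at 1352 and 1014 units with a ratio of -0.41 and Cd14 at 1235 and 1398 units with 0.18. C1qb lay -2.83 local spreads from the local median, beyond 2 on the lower side, where 2.98% of all measured probe sets lay. Of 4 endothelial markers on the array 1 was measured, Esam, at 584 and 479 units with a ratio of -0.28. The rat probe set of Slc2a1, the endogenous gene of GLUT1, read 2902 and 3121 units. The sources used here do not say whether its rat probes bind the human cDNA, so it does not check the labels.

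All 8 represented genes were measured through their brightest probe set, and no gene of the group reached a 2-fold difference in either direction. Over all measured genes the same threshold was passed upward by 0.0164% and downward by 0%. Among the 8 genes, 5 ratios were above 0 and 3 below, and their median was 0.17, beside a median of 0.01 for all measured genes, of which 52.2% were above 0. Averaging all probe sets of each gene in place of taking the brightest gave a median of 0.09. The log2 ratios ran from -0.46 for Pfkfb2 to 0.32 for Pfkfb1. The 5th and 95th percentiles of all measured genes were -0.21 and 0.23, so these members of opposite sign lay outside them and the other 6 inside.

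**Figure D1:**
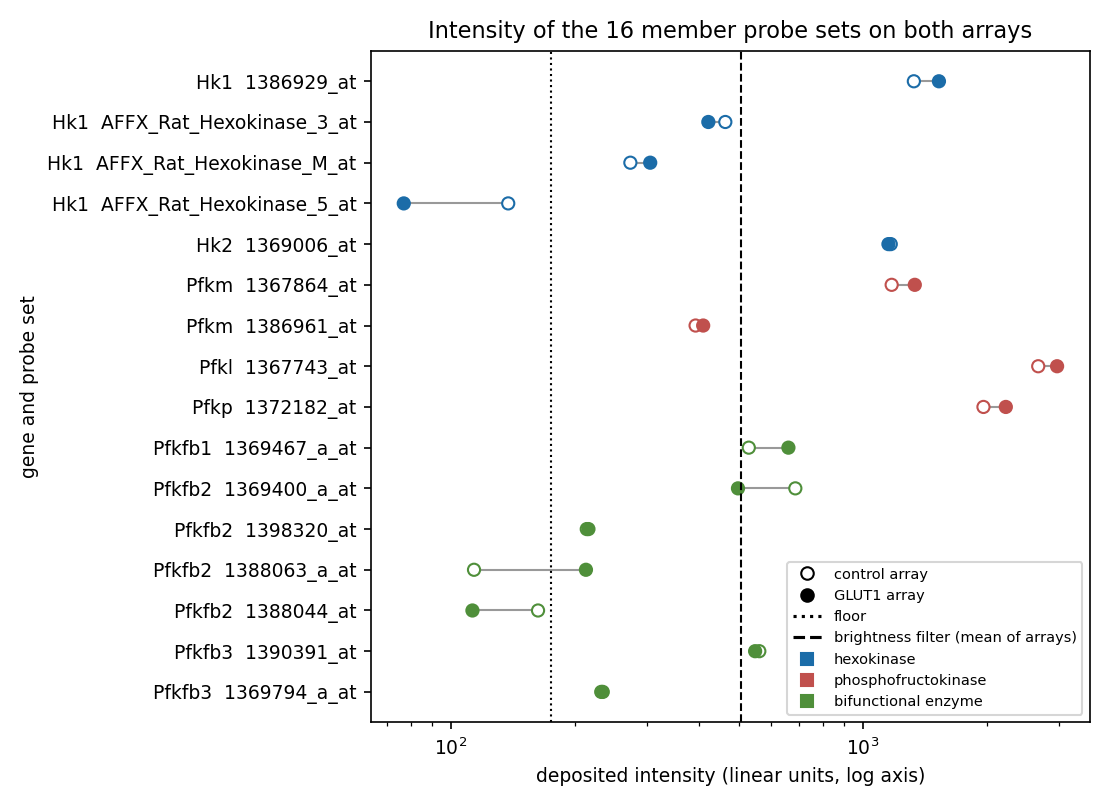
Deposited intensity of each of the 16 probe sets (linear units on a log axis) on the control array (open) and the GLUT1 array (filled), coloured by enzyme class. The dotted line is the floor of 175 units and the dashed line the filter at 507 units, which applies to the mean of both arrays; 8 probe sets lie to its right on that mean, and the lowest readings, 77 and 113 units, are on the GLUT1 array.

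Hk1 and Hk2 were both read clearly on both arrays. The probe set 1386929_at for Hk1 gave 1330 units on the control and 1530 on the GLUT1 array, ranks 4404 and 3939 from the brightest of 15923. The probe set 1369006_at for Hk2 gave 1169 and 1154 units, ranks 4882 and 4936. The ranks place each probe set within its array and do not order the amounts of different transcripts, because probe sets differ in affinity.

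The Hk1 reading was higher on the GLUT1 array by 200 units, a log2 ratio of 0.20 with a local spread of 0.12. Its distance from the local median was 1.60 local spreads, and 6.93% of measured genes had a higher ratio. The Hk2 reading differed by 15 units in the other direction, a log2 ratio of -0.02 with a local spread of 0.15. Of the measured genes, 57.7% had a higher ratio than Hk2, so it lay in the middle of the distribution. The difference between the Hk1 and Hk2 ratios was not tested, since each rests on 1 pair of readings.

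Hk1 was also read by 3 of the manufacturer's control probe sets, which lie at the 3′ end, the middle and the 5′ end of the transcript and are placed on the array to follow the integrity of the RNA and its copying. All were dim, below the brightness filter. The 3′ probe set gave 464 units on the control and 422 on the GLUT1 array, a log2 ratio of -0.14. The middle one gave 273 and 305 units, a ratio of 0.16. The 5′ one gave 138 and 77 units, below the floor on both arrays, so it has no ratio. The 3′ and middle probe sets thus differed in opposite directions between the arrays, by amounts under 1 spread of probe sets of like intensity. Averaging all 4 probe sets brought the Hk1 ratio to 0.06, with the 5′ probe set entering as 0. The control sets for Gapdh, a bright transcript, read 33790 units at the 3′ and 29017 at the 5′ end on the control array, and 34037 and 27388 on the GLUT1 array. The middle Gapdh set read 28351 and 29822 units. Among probe sets of like intensity the 5′ Gapdh set lay -2.37 and the middle one 2.29 spreads from the local median. Of all probe sets, 3.2% lay beyond 2 such spreads on the lower and 3.28% on the upper side. On the log2 scale the distances were -1.06 and 1.08 local spreads. The part of RNA integrity in the Hk1 readings was not tested.

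All phosphofructokinase subunit genes were read, each a little higher on the GLUT1 array. Pfkl, the liver-type subunit, gave 2664 units on the control and 2960 on the GLUT1 array through probe set 1367743_at, ranks 2259 and 2020. Pfkp, the platelet-type subunit, gave 1962 and 2223 units through 1372182_at, ranks 3135 and 2761. Pfkm, the muscle-type subunit, gave 1175 and 1337 units through 1367864_at, ranks 4866 and 4393. Transcripts of the muscle, liver and platelet types were thus all read above the filter on both arrays in these smooth muscle cells.

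The log2 ratios of the subunits were close to one another. They were 0.15 for Pfkl with a local spread of 0.11, 0.18 for Pfkp with a local spread of 0.11, and 0.19 for Pfkm with a local spread of 0.14. In units of that spread the distances from the local median were 1.38, 1.59 and 1.34. None passed 2 local spreads, and 12.6%, 9.19% and 8.54% of measured genes had a higher ratio than Pfkl, Pfkp and Pfkm. The second Pfkm probe set, 1386961_at, is annotated with the same source sequence as the first, BI291434. It was dimmer, at 393 and 410 units, and lay below the filter with a ratio of 0.06. The average of both Pfkm probe sets was 0.13.

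The promoter windows of the subunit genes are shown because these were the members of one class with ratios nearest each other. They run 5′ to 3′ on the gene's strand from 250 bases before to 50 bases after the annotated start, from RefSeq on build GRCr8. Capitals mark the GC box GGGCGG, bound by Sp1-family factors, and the hypoxia response core ACGTG, both searched on either strand with overlaps allowed.
Pfkl: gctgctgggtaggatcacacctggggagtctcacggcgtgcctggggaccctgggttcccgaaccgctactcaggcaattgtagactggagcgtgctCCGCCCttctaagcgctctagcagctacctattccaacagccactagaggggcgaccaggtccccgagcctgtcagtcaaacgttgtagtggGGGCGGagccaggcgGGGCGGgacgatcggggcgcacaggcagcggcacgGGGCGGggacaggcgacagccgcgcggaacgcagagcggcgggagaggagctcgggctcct
Pfkp: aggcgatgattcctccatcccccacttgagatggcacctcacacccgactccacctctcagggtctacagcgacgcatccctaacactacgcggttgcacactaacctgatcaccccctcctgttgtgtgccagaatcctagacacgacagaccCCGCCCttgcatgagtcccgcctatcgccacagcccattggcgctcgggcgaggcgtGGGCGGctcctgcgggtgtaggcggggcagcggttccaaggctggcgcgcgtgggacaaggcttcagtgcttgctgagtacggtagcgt
Pfkm: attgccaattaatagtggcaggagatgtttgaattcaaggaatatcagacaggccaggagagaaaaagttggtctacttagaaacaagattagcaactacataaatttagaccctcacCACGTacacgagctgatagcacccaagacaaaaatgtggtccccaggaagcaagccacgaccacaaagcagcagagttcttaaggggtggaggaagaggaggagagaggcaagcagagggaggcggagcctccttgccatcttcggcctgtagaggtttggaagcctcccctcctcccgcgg
The windows lie at chr20:10663715-10664014, chr17:68639563-68639862 and chr7:131113849-131114148, all on the + strand.

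The Pfkl window held 4 GC boxes and the Pfkp window 2, and neither held ACGTG. The Pfkm window held no GC box and 1 ACGTG. Of 27457 rat promoter windows of the same length, 34.9% held a GC box and 19.7% held ACGTG. All 9 genes of the group had a window, of which 3 held a GC box and 3 held ACGTG. Pfkfb3, known for its induction by hypoxia, held 2 of each, with both ACGTG matches in 1 palindromic E-box, CACGTG, a motif present in 6.65% of all windows. The Hk1 and Hk2 windows held none of these letters. A match describes the sequence only, and each gene can have other starts.

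**Figure D2:**
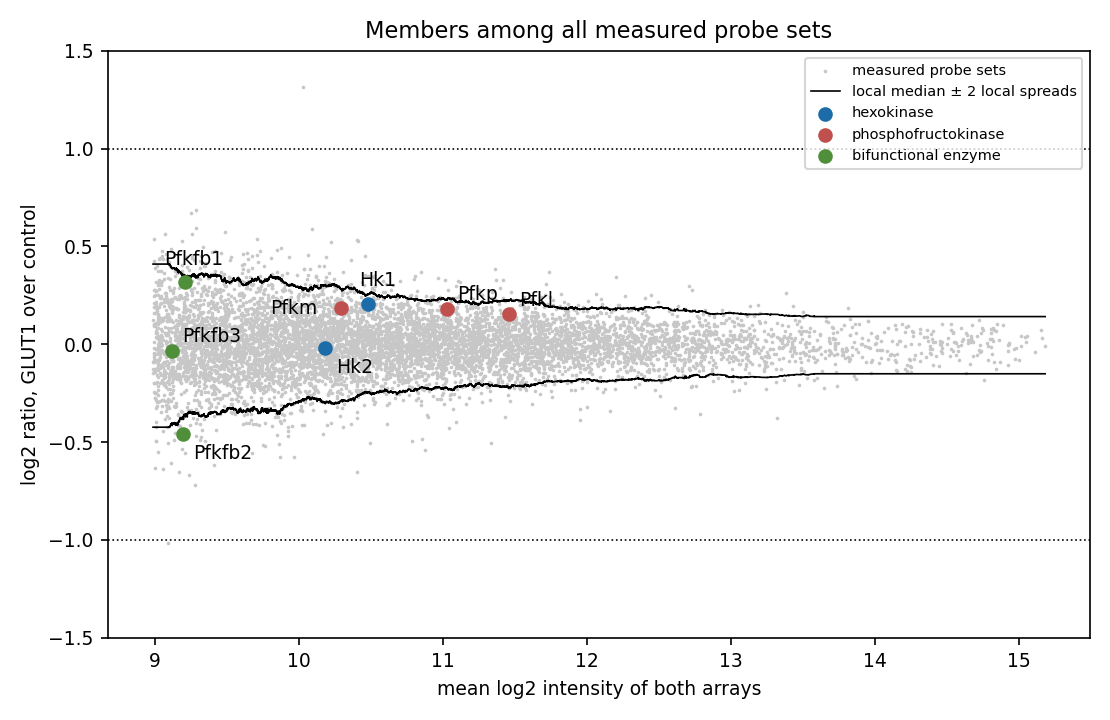
Log2 ratio, GLUT1 over control, against mean log2 intensity for the 7962 measured probe sets (grey), with the 8 measured member probe sets coloured by class. Black lines are the local median plus and minus 2 local spreads and dotted lines the 2-fold threshold; Pfkfb2 lies below the lower line, and the other 7 lie between the lines.

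The bifunctional enzymes were read near the brightness filter, with log2 ratios from -0.46 to 0.32. Pfkfb1, the form first known from liver and skeletal muscle, gave 529 units on the control and 660 on the GLUT1 array through probe set 1369467_a_at, ranks 7831 and 7046. The log2 ratio was 0.32 with a local spread of 0.18, a distance of 1.83 local spreads, and 1.91% of measured genes had a higher ratio. Pfkfb1 has 1 probe set here, so no second reading stands beside it.

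Markers of the tissues in which Pfkfb1 is best known were mostly dim. None of the 7 hepatocyte markers was measured, with control readings from -51 to 470 and GLUT1 readings from -125 to 464 units. Their summed intensity was 1259 units on the control and 1068 on the GLUT1 array. Of the 9 skeletal muscle markers on the array, 1 was measured, Acta1, at 2339 and 2240 units with a ratio of -0.06. The sum of the 9 was 3665 units on the control and 3621 on the GLUT1 array. The part of other cell types in the Pfkfb1 reading was not tested.

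Pfkfb2, known as the heart form, had the lowest ratio of the group. Its brightest probe set, 1369400_a_at, gave 686 units on the control and 498 on the GLUT1 array, ranks 6892 and 8030. The log2 ratio was -0.46 with a local spread of 0.18, and the distance of -2.46 local spreads ranked 191 in size among 7962 measured probe sets. It was the 1 member probe set beyond 2 local spreads, and it lay on the lower side, where 2.98% of all measured probe sets lay. On the upper side there was no member, beside 2.91% of all measured probe sets. The GLUT1 reading by itself was under the brightness filter, and the gene passed through its control reading.

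The other Pfkfb2 probe sets, all below the filter, were divided in direction. Probe set 1398320_at read 214 and 216 units, a ratio of 0.01. Probe set 1388063_a_at read 114 and 213 units, so its control value was below the floor and its ratio of 0.28 is set by the floor. Probe set 1388044_at read 163 and 113 units, below the floor on both arrays. In linear units, where dim probe sets can be set beside others of like intensity, 1388063_a_at differed by 99 units, or 1.87 spreads of such probe sets, and 1388044_at by -50 units, or -1.10 spreads. The brightest probe set differed by -188 units, or -2.55 spreads, and was the 1 of 16 member probe sets beyond 2 such spreads. Over all probe sets 3.28% lay beyond them on the upper and 3.2% on the lower side. The average ratio of all 4 was -0.04.

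Pfkfb3, the inducible form with high kinase activity, was read close to the filter and almost alike on both arrays. Probe set 1390391_at gave 561 units on the control and 548 on the GLUT1 array, ranks 7636 and 7711. Its log2 ratio was -0.03 with a local spread of 0.20. The second probe set, 1369794_a_at, gave 232 and 234 units and a ratio of 0.01. Of the measured genes, 62.5% had a higher ratio than Pfkfb3.

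No detection calls were used here, so the dim readings were set beside 27 control probe sets for Bacillus genes, sequences that rat cells do not make. The sources used here do not say whether those transcripts had been added to the samples. They read from -54 to 462 units on the control array, with a median of 32, and from -45 to 265 on the GLUT1 array, with a median of 39. A single probe set held the top value on both arrays, and the next highest values were 126 and 145 units. The top probe set differed by -197 units between the arrays, or -2.92 spreads of probe sets of like intensity. For the brightest Pfkfb2 probe set these values were -188 units and -2.55 spreads. The other Bacillus controls all lay within 2 such spreads. All 8 genes had a probe set above every one of these controls on both arrays. Of the 16 member probe sets, 9 were above all 27 on both arrays and 13 were above all but the brightest one. The remaining 3 were the 5′ control set of Hk1 and the Pfkfb2 probe sets 1388063_a_at and 1388044_at. The second Pfkm probe set and the control sets of Hk1 for the middle and the 3′ end were among the 13.

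Paralogues and opposing enzymes gave small or unreadable differences. Of 11 such genes 6 were on the array and 2 were measured. G6pc3, a widely expressed glucose-6-phosphatase, read 2279 and 2439 units, a log2 ratio of 0.10. Slc37a4, the transporter that carries its substrate into the endoplasmic reticulum, read 796 and 755 units, a ratio of -0.07. Pfkfb4, the testis form of the bifunctional enzyme, lay below the filter, at 238 and 285 units through one probe set and 271 and 219 through the other. The fructose bisphosphatases were dim too, Fbp1 at 180 and 165 units and Fbp2 at 173 and 241 units, and so was Gckr, the glucokinase regulator, at 188 and 154 units.

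In the rest of glycolysis, 17 of 20 genes were on the array and 13 were measured, with a median ratio of 0.01. The other 4, Aldoc, Pgam2, Pklr and Ldhc, lay below the filter and are named for that reason after their values were seen. Aldoc read 122 units on the control and 258 on the GLUT1 array. Its control value was below the floor, so its ratio of 0.56 is set by the floor. Of the 13 measured genes, 8 lay above and 5 below 0, and none reached 2-fold. The farthest were Gapdhs, the sperm form of glyceraldehyde phosphate dehydrogenase, at 1291 and 1076 units with a ratio of -0.26, and Bpgm, bisphosphoglycerate mutase, at 1077 and 1189 units with 0.14. The median of the 8 group members was 0.17, and whether it differs from that of the rest of the pathway was not tested.

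The list made for hexokinase docking at mitochondria was measured in full, 7 of 7 genes. Its median was 0.05, with 4 genes above 0 and 3 below. Beside the Vdac channels and Tspo it holds Slc25a4, Slc25a5 and Ppif, which are not outer membrane proteins and are named here to describe the list. Averaged over probe sets the median was -0.03. Tspo, an outer membrane protein, read 3767 and 4290 units, a ratio of 0.19 with a local spread of 0.09. Its distance of 2.09 local spreads was beyond 2 on the upper side, where 2.91% of all measured probe sets lay. Vdac2, a voltage-dependent anion channel, read 4007 and 4316 units, a ratio of 0.11. Vdac1, the channel best known as the hexokinase dock, named after its value was seen, read 5221 and 5506 units, a ratio of 0.08.

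Of 15 genes for kinases that act on the bifunctional enzymes, regulatory subunits of AMPK included, 12 were on the array and 9 were measured. Their median was 0.00, with 4 of them above 0 and 5 below. Prkaa1, a catalytic subunit of the energy sensor AMPK, read 1022 and 870 units, a log2 ratio of -0.23. Mapkapk2, a stress-activated kinase, read 2778 and 3245 units, a ratio of 0.23 with a local spread of 0.11. Its distance of 2.005 local spreads was just beyond 2 on the upper side. Of 12 transcription factor genes linked to these enzymes 5 were measured, with a median of 0.03, or -0.0074 when probe sets were averaged. Myc read 884 and 991 units, a ratio of 0.17, and Hif1a, the hypoxia-inducible factor, read 8607 and 7870 units, a ratio of -0.13. No measured gene of any comparison list reached 2-fold.

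**Figure D3:**
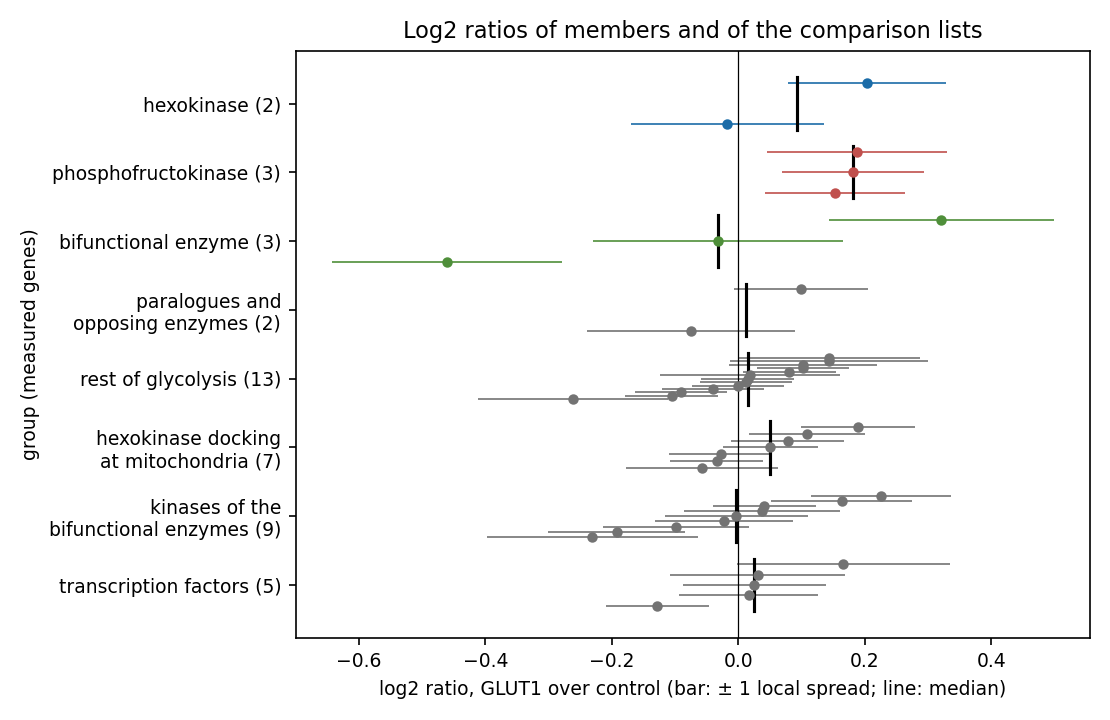
Log2 ratio, GLUT1 over control, of each measured gene in the 3 enzyme classes (coloured) and the 5 comparison lists (grey), with the number of measured genes in brackets. Bars are plus and minus 1 local spread and black lines are medians; the 3 phosphofructokinase subunits lie between 0.15 and 0.19, while the bifunctional enzymes span -0.46 to 0.32.

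As a further gauge of precision within these arrays, 703 genes had at least 2 measured probe sets. The brightest pair of each gave an SD of 0.13 for 1 log2 ratio. The ratios of Hk1, Pfkm, Pfkl and Pfkp were each between 1 and 2 times that value, and only those of Pfkfb1 and Pfkfb2 were larger. This SD was taken over genes of all brightness, and the local spreads of Pfkfb1 and Pfkfb2 were wider, 0.18 each. In local spreads Pfkfb1 lay 1.83 and Pfkfb2 -2.46 from the local median. The SD also leaves out any difference between pools or arrays that both probe sets of a gene share. No gene of the group has 2 measured probe sets, so none of its ratios has a second bright reading beside it.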

How the data were processed

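Gene expression was measured on an Affymetrix rat array in 1 control and 1 GLUT1 pool. The deposited table holds 1 linear intensity per probe set and array, in whole numbers. For the deposited intensities, software, summary method and background correction were not given in the sources used here. Both columns have nearly the same sorted values, so a change in total mRNA cannot be seen. Values at or below 0 made up 3.01% of the control and 3.04% of the GLUT1 array.

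The GLUT1 array was scaled to a median log2 ratio of 0 over the brighter probe sets, a shift of -0.0014. Values below the 25th percentile were raised to it before log2. The platform annotation named the probe sets, through gene IDs in a rat table of assembly GRCr8. It gave 1 gene for 12789 probe sets, several for 312 and none for 2822. The IDs of 12754 were in the table. Control probe sets with a single gene were kept.

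The members and lists were chosen with earlier results of these data known. All members were named, with every gene of the paralogue list and, from each other comparison list, the 2 measured genes with the largest absolute log2 ratio; marker genes were named as examples after their values were seen. With 2 arrays, genes of a like pattern were not sought. Python 3.11.15 was used, and the steps were tested on simulated data.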

Additional observations from a re-analysis of the deposited data

How the results depend on the processing

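No paired analysis was possible because both groups consist of a single array. With deposited values already equalised, leaving out the scaling or quantile normalization could move little. No member reached the 2-fold threshold under any setting run. None reached 1.5-fold in the main setting, where 4 of 6115 measured genes were higher and 4 lower by that amount. With so few genes passing, the absence of members is no result about them. The 3-fold threshold, run in the main setting too, could add nothing once no member reached 2-fold. With a filter at the 75th percentile 2 members were measured, Pfkl and Pfkp, beside 3216 of 10412 genes. Both were above 0, as were 52.2% of all measured genes at the main filter, so their shared direction says little. Averaging probe sets gave a median log2 ratio of 0.091; probe sets at the floor on both arrays enter an average as 0. At 3 local spreads, 0 member probe sets lay on the lower side. The share of all measured probe sets beyond 3 is not given here, so this count is no result about the members. Setting linear intensities of all probe sets beside each other, chosen after seeing the data, again left 1 member beyond 2 spreads, Pfkfb2, on the lower side, beside 3.2% of all probe sets. With a floor at the 10th percentile dim probe sets moved both ways: of Pfkfb2, 1388063_a_at went from 0.28 to 0.90 and 1388044_at from 0 to -0.53, and the 5′ control set of Hk1 from 0 to -0.84. Dimness of the bifunctional enzymes limits their ratios.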
